A study of Mus musculus with 6 samples.

Results

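The 4 genes described here are Ighm, Ighd, Cd79b and Pou2af1, genes of the B cell receptor and its transcription that were detected in every library of sorted WT CD8 T cells. They are 4 of 55450 genes in the deposited table, and all 4 were among the 13470 genes with enough counts to be tested. The members were chosen by their level in the WT libraries, with no numerical threshold, so those levels are a description and carry no test. Level alone does not set them apart, because Cd72, a B cell surface protein gene at 40.9 ± 4.52 CPM (gene counts scaled by library size, SD, n = 3) in WT, is not among them, while Ighd at 6.90 ± 1.51 CPM (SD, n = 3) is.

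The libraries came from naive CD8 T cells sorted from mouse lymph node as negative for Ly6C and CXCR3. There were 3 samples from WT (C57BL/6) mice and 3 labelled CD103KO, from Itgae-/- mice, whose targeted gene encodes the integrin chain CD103; how the allele was made is not given in the sources used here. Nothing in the labels gives the animals' age or ties samples to separate animals, and p-values reflect only the spread among these libraries. Polyadenylated RNA was sequenced to between 68292475 and 94347034 counts per library.

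Itgae, the targeted gene, had a level of 482 ± 19.3 CPM in WT, while in CD103KO it was 65.6 ± 3.90 CPM (SD, n = 3 each), lower in every CD103KO library. Each of these libraries still held 4622 to 4985 Itgae counts, and which part of the gene they came from was not analysed here. The labelled cell type held for its markers, with Cd8a at 1438 to 1506 CPM and Cd3e at 399 to 421 CPM across the 6 libraries, and Cd4 at 0.775 CPM or less in each. WT replicates 1 and 2 had 5012 and 7628 counts of Xist, the RNA of the inactive X chromosome, whereas no more than 2 were found in WT replicate 3 or in any CD103KO library. Ddx3y, on the Y chromosome, had 0 counts in WT replicates 1 and 2 and 3612 to 4466 in each of the others, so the WT libraries did not all come from 1 animal. That is the pattern of female samples for WT replicates 1 and 2 and of male samples for the others. Sex thus cannot be fully told apart from genotype here, and the later term for libraries with Xist reads stands for it. WT replicate 1 also stood apart in switched immunoglobulin, with 219 counts of Ighg1 against 16 to 37 in each of the other 5 libraries, and results that touch this are given with and without it.

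On a B cell, the antigen receptor is a membrane immunoglobulin held by a pair of signalling chains. Ighm and Ighd encode the constant regions of the IgM and IgD heavy chains, which naive B cells make together by splicing of 1 long primary transcript. Cd79b encodes Ig-beta, which pairs with Ig-alpha (Cd79a) and carries an immunoreceptor tyrosine-based activation motif (ITAM), the phosphorylated element that CD3 chains carry on T cells. Pou2af1 encodes OCA-B, a coactivator that binds the octamer factors Oct-1 (Pou2f1) and Oct-2 (Pou2f2) on DNA. In T lineage cells the heavy chain locus is not fully silent, and transcripts through the Ighm constant exons without a joined variable segment have long been known there.

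Ighm (ENSMUSG00000076617.9) lies on chromosome 12 from 113418558 to 113422730, and Ighd (ENSMUSG00000104213.5) follows it from 113406604 to 113416324, both on the minus strand of GRCm38 and 2233 bases apart. Their membrane forms end in nearly the same way, and both depend on the Cd79 pair to signal. The last 60 coding bases before the stop codon are shown for the transcripts Ighm-202 (chr12:113418829-113419006, the stretch crosses an intron) and Ighd-202 (chr12:113407538-113407817, likewise), read from GENCODE M21 transcripts. Capitals mark the last 9 bases, the 3 codons of the short tail inside the cell.
Ighm-202: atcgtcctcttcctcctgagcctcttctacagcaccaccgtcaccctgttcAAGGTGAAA
Ighd-202: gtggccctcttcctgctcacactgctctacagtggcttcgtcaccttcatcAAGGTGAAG
The stretches share 42 of 60 bases, and 8 of the last 9. Both genes also have an annotated secreted form, and counts per gene do not separate the forms.

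Cd79b (ENSMUSG00000040592.11) lies on chromosome 11 from 106311341 to 106314762 on the minus strand, 33.2 Mb from Itgae. Its annotation overlaps no other gene. The coding bases of its ITAM are shown beside those of its partner Cd79a, because the members of this pair went different ways in the counts. Capitals mark the codons of the 2 tyrosines and of the leucine or isoleucine that follows each (Cd79b-201, chr11:106311867-106312012; Cd79a-201, chr7:24901296-24901469, plus strand; both cross an intron).
Cd79b-201: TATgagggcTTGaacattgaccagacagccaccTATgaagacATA
Cd79a-201: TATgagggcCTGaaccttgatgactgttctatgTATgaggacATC
These share 31 of 45 bases.

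Pou2af1 (ENSMUSG00000032053.8) lies on chromosome 9 from 51213708 to 51240080 on the plus strand. A sense intronic transcript, Gm47828, is annotated within it and had 1 count in all 6 libraries together. Of the 4 members, 1 matched the RefSeq promoter table (GRCm38.p6). The 250 bases before the RefSeq start of Pou2af1 are shown because its product works at octamer sites (chr9:51213440-51213689). Capitals mark TGCAAAT, 7 of the 8 bases of the octamer, 231 bases before the start, and TGACGT, a cyclic AMP response half-site, 61 bases before it.
Pou2af1: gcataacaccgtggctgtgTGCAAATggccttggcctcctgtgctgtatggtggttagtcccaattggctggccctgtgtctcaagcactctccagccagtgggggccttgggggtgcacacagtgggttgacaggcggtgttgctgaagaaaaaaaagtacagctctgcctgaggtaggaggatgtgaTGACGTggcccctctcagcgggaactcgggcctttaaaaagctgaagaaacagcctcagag
Searched on both strands of 32851 RefSeq promoters of 300 bases (250 before and 50 after the start), the whole octamer ATGCAAAT stood in 1.74%, TGCAAAT, which lies within it, in 4.02% and TGACGT in 7.51%. The whole octamer was not in the Pou2af1 window. TGCAAAT and TGACGT were chosen after the sequence was seen.

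Ighm, the IgM heavy chain constant gene, was among the more abundant transcripts of these T cells. It was at 424, 453 and 475 CPM in WT replicates 1, 2 and 3, from 31772, 43326 and 37721 counts. CD103KO replicates 1, 2 and 3 were at 459, 439 and 459.6 CPM, from 33724, 29904 and 34743 counts. The CD103KO values all fell inside the WT range, whose ends were WT replicate 1 (lowest) and WT replicate 3 (highest). Its log2 fold change was 0.01 (SE 0.05, 95% interval -0.10 to 0.12, adjusted p = 0.980, edgeR quasi-likelihood test over all genes). This interval, set against the WT mean, allows a rise of up to 37.4 CPM or a fall of up to 30.5 CPM, so changes of a few CPM were not detectable in Ighm.

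Per length, on the scale of CPM per kilobase of merged exons, Ighm stood at 239 ± 13.3 in WT (SD, n = 3), rank 175 of 13470 tested genes. On the same scale Cd3d, a chain of the T cell receptor complex, was at 327 ± 5.23 and Cd3e at 99.8 ± 2.98 (SD, n = 3 each). Ighm thus lay between these T cell receptor components per length. The other members were lower, Cd79b at 17.7 ± 1.47, Pou2af1 at 6.56 ± 0.530 and Ighd at 3.63 ± 0.797 CPM per kilobase in WT (SD, n = 3 each). Their ranks per length were 2505, 5435 and 7138 of 13470, and 47.0% of tested genes were below Ighd, which was thus not among the well transcribed genes. In CD103KO the order was the same, with Ighm at 240.002 ± 6.26, Cd79b at 17.8 ± 0.527, Pou2af1 at 6.79 ± 0.369 and Ighd at 5.43 ± 0.214 CPM per kilobase (SD, n = 3 each). Within each group, no library of one gene reached the range of its neighbour in that order.

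Ighd, the IgD constant gene, was the member whose groups did not overlap. WT replicates 1, 2 and 3 were at 6.68, 8.51 and 5.51 CPM, from 500, 815 and 438 counts. CD103KO replicates 1, 2 and 3 were at 9.90, 10.7 and 10.3 CPM, from 727, 730 and 780 counts. All 3 CD103KO libraries lay above the highest WT library, and the WT values were the more scattered, with WT replicate 3 lowest. Its log2 fold change was 0.58 (SE 0.14, 95% interval 0.26 to 0.90), a fold of 1.49, and it did not pass over all genes with edgeR (unadjusted p = 0.00277, adjusted p = 0.280). DESeq2 called it higher (adjusted p = 0.00967), and so did edgeR with no filter on low counts (adjusted p = 0.0250), while limma-voom did not (adjusted p = 0.251). Without WT replicate 2, the highest WT library, the log2 fold change was 0.76 (adjusted p = 0.0581, edgeR), and without WT replicate 3 it was 0.44 (adjusted p = 0.241, edgeR). A model with a term for libraries with Xist reads, in which only WT replicate 3 stands for WT, gave 0.90 for Ighd (adjusted p = 0.215, edgeR) and -0.07 for Ighm.

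**Figure D1:**
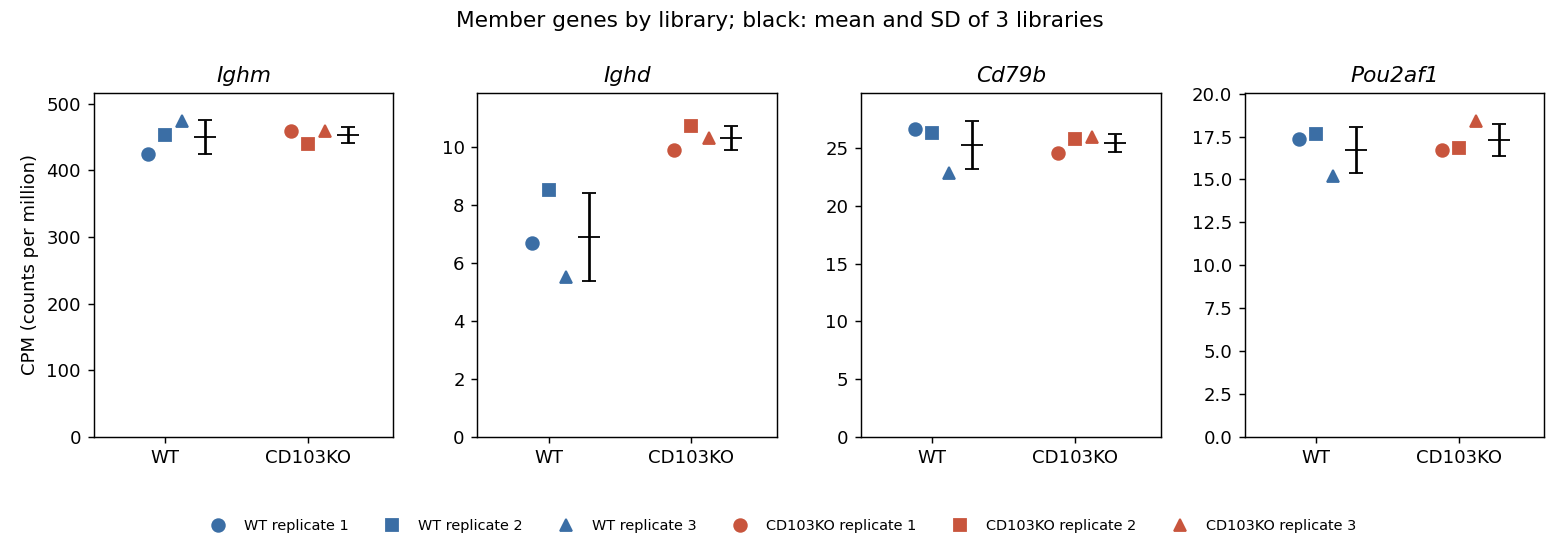
CPM of Ighm, Ighd, Cd79b and Pou2af1 (vertical axes from 0, one scale per gene) in each of 3 WT and 3 CD103KO libraries, with the mean and SD of each group in black. Ighd lies at 9.90 to 10.7 CPM in CD103KO against 5.51 to 8.51 CPM in WT, and the groups of the other members overlap.

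Cd79b, the Ig-beta chain, was at 26.7, 26.3 and 22.9 CPM in WT replicates 1, 2 and 3. CD103KO replicates 1, 2 and 3 were at 24.6, 25.8 and 26.0 CPM. The CD103KO libraries lay inside the WT range, and WT replicate 3 was the lowest library. The log2 fold change was 0.01 (SE 0.07, 95% interval -0.15 to 0.17, adjusted p = 0.978, edgeR), which allows a rise of up to 3.23 CPM. With the Xist term it was 0.16 (adjusted p = 0.682, edgeR).

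Pou2af1, the octamer coactivator gene, was at 17.3, 17.6 and 15.2 CPM in WT replicates 1, 2 and 3. CD103KO replicates 1, 2 and 3 were at 16.7, 16.8 and 18.4 CPM. The groups overlapped, with WT replicate 3 again lowest and CD103KO replicate 3 highest. The log2 fold change was 0.05 (SE 0.08, 95% interval -0.12 to 0.22, adjusted p = 0.880, edgeR). With the Xist term it was 0.19 (adjusted p = 0.689, edgeR).

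Over the members, edgeR called 0 of 4, where 0.223% of all tested genes were called (30 of 13470). Without adjustment, at p under 0.05, edgeR gave 1 of 4, Ighd, against 8.73% of tested genes (4.53% higher). At an adjusted p under 0.05, DESeq2 called 1 of 4, Ighd, against 1.02%, and limma-voom 0 of 4 against 0.215%. Groups did not overlap for 1 of 4 members, Ighd, higher in CD103KO, and for 14.2% of tested genes (6.82% higher and 7.36% lower). As the members were named from the same WT libraries with these differences known, these counts describe them and support nothing further. On simulated counts for the same 13470 genes, edgeR recovered 70.0% of genes changed 1.5-fold. The simulation gave genes of like level the same spread and led to 153 calls, against 30 in these data. Its share therefore cannot be carried over to a single gene here.

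The rest of the heavy chain locus was nearly empty beside Ighm. Of all counts on immunoglobulin genes, Ighm held 97.4 ± 0.971% in WT and 96.0 ± 0.528% in CD103KO (SD, n = 3 each, exact two-sided permutation p = 0.2). Ighd held 1.497 ± 0.347% and 2.19 ± 0.131% (SD, n = 3 each, exact p = 0.1, which is the lowest p that this design allows). The 113 Ighv segments, which encode the variable region, together had 81 counts in WT replicate 1, 43 in WT replicate 2 and 18 in WT replicate 3. The CD103KO libraries had 53, 73 and 64 of them. They were thus between 392 and 2096 times fewer than Ighm counts in the same library. Per length, all Ighv segments summed to 0.670 ± 0.529 for every 100 of Ighm in WT and 1.00 ± 0.245 in CD103KO (CPM per kilobase, SD, n = 3 each, exact p = 0.4). On the log2 scale, the ratio of summed Ighv CPM to Ighm was higher in CD103KO by 0.85 with all libraries (exact p = 0.4) and by 1.48 without WT replicate 1 (exact p = 0.2).

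Of the segments joined to make a variable region, the 19 Ighd diversity segments (10 to 29 bases each) and the 4 Ighj joining segments (48 to 100 bases each) had 0 counts in every library. In a single library a count of 0 allows up to 3 counts, or 0.0313 to 0.0440 CPM, for counting error only. These features are far shorter than the constant genes, and how reads over such short features were assigned is not given in the sources used here. Which exons of Ighm the counts fell on was not analysed here.

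Switched constant genes, which replace Ighm after class switching in activated B cells, were low. The 6 of them (Ighg1, Ighg2b, Ighg2c, Ighg3, Ighe and Igha) summed to 4.11 CPM in WT replicate 1, to 0.930 and 0.591 CPM in the other WT libraries, and to between 1.185 and 2.22 CPM in CD103KO. The difference of CD103KO minus WT was -0.224 CPM with all libraries (exact p = 1) and 0.894 CPM without WT replicate 1 (exact p = 0.2). Light chain genes, the partners of the heavy chain, summed to 4.19, 1.504 and 2.0001 CPM in the WT libraries (replicates 1, 2 and 3). In the CD103KO libraries these sums were 4.26, 6.50 and 7.05 CPM. Every CD103KO library lay above every WT library, with WT replicate 1 just under CD103KO replicate 1 (exact two-sided permutation p = 0.1, adjusted p = 0.3 over 6 sums). Without WT replicate 1 the difference was 4.19 CPM (exact p = 0.2, the lowest possible there).

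**Figure D2:**
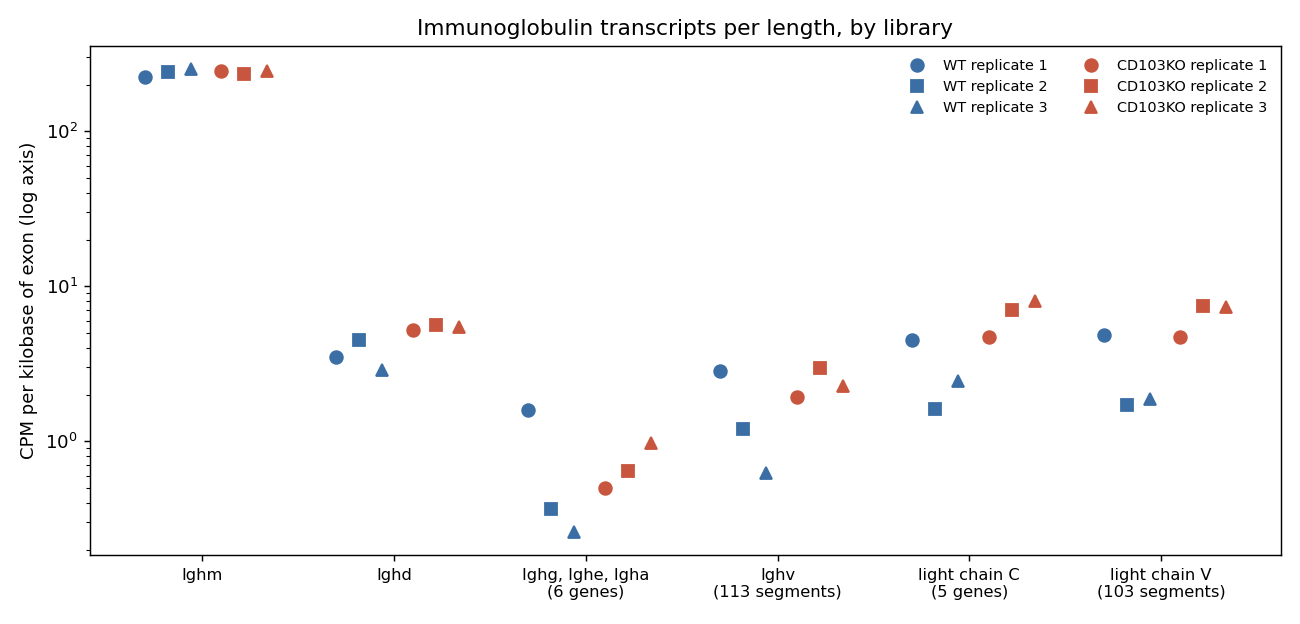
CPM per kilobase of exon (log axis) for Ighm, Ighd and sums of other immunoglobulin genes, each point being 1 library. Ighm lies at 225 to 252 in all 6 libraries, while Ighd and the other classes drawn, with light chain V and C genes summed separately, stay under 8.1 and WT replicate 1 lies highest among WT for all classes but Ighm and Ighd.

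Ratios within a library need no scaling between libraries. Ighd as a share of Ighm (CPM) was 1.57, 1.88 and 1.16% for the WT libraries. For the CD103KO libraries the share was 2.16, 2.44 and 2.25%. The groups did not overlap, and the ratio was 1.51 times the WT value in CD103KO (exact two-sided permutation p = 0.1, adjusted p = 0.2 over 6 ratios). With 3 libraries a group no ratio could pass.

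Cd79b outnumbered its partner Cd79a in every library, though on a B cell the proteins pair. The CPM ratio of Cd79b to Cd79a was 35.7, 37.0 and 27.97 for the WT libraries. For the CD103KO libraries it fell between 8.44 and 11.5. It was 3.27 times higher in WT, with no overlap (exact p = 0.1, adjusted p = 0.2). Cd79a itself rose, from 0.759 ± 0.0545 to 2.53 ± 0.493 CPM (SD, n = 3 each). Its log2 difference was 1.74 (SE 0.19), and edgeR gave an adjusted p = 0.00592, while Cd79b did not pass. Because Cd79a is the denominator, the ratio of Ighm to Cd79a moved likewise, from 567, 637 and 580.3 in WT to 215, 186 and 149 in CD103KO (exact p = 0.1, adjusted p = 0.2).

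The ratio of Ighm to Igkc, the kappa light chain constant gene, was 210.4 in WT replicate 1, 747 in WT replicate 2 and 686 in WT replicate 3. It was 291, 187 and 164 in CD103KO replicates 1, 2 and 3. Here the groups overlapped through WT replicate 1 (exact p = 0.2, adjusted p = 0.3). The log2 difference was -1.20 with it and -1.79 without it (exact p = 0.2). Pou2af1 was 0.549 to 0.666 times Pou2f2, the gene of its partner Oct-2, in WT and 0.563 to 0.729 times in CD103KO on the CPM scale (exact p = 0.7, adjusted p = 0.7).

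**Figure D3:**
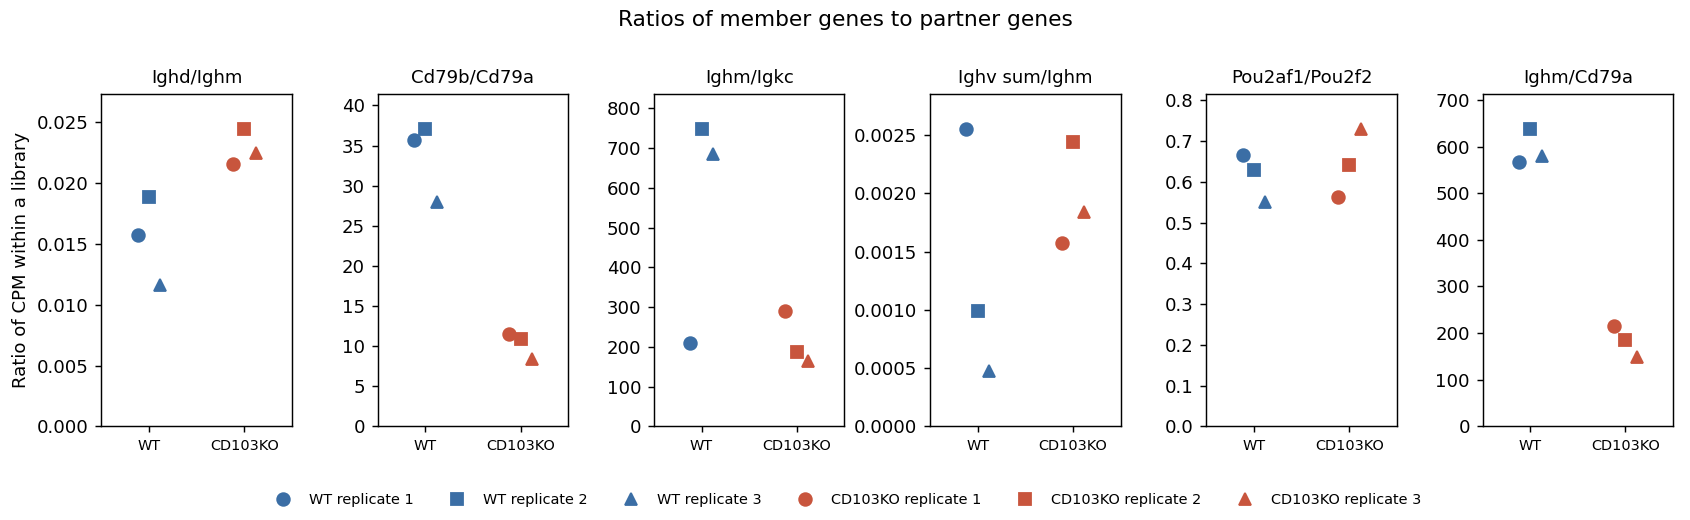
Ratios of CPM within each library for 6 pairs (vertical axes from 0, one scale per pair), each point being 1 library. Ighd/Ighm, Cd79b/Cd79a and Ighm/Cd79a separate the groups, and the other 3 pairs overlap.

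The octamer factors that work with Pou2af1 did not pass the test either. Pou2f1 stood at 45.8 ± 0.752 CPM in the WT group against 47.0 ± 1.97 CPM, and Pou2f2 at 27.2 ± 1.07 against 27.1 ± 2.34 CPM (SD, n = 3 each; adjusted p = 0.861 and 0.982, edgeR). Pou2f3, the third family member, had 0 counts in all libraries. EdgeR called 0 of the 3 tested genes of this list, 0 reached an unadjusted p under 0.05, DESeq2 and limma-voom called 0, and the median log2 fold change was 0.04, against -0.00 over all tested genes.

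Receptor partner chains, 13 genes with Ighm, Ighd and Cd79b among them, had 9 tested members. EdgeR called 1 higher (Cd79a) and 0 lower, and DESeq2 called 3 higher, Ighd among them, against 0.141% and 0.661% of tested genes. The median log2 fold change was 0.58, which is the value of Ighd itself, so this list is not independent of the members. Vpreb1, a surrogate light chain gene of B cell precursors, was at 0.547 ± 0.0581 and 0.466 ± 0.0497 CPM (SD, n = 3 each), or -0.23 on the log2 scale (adjusted p = 0.818, edgeR). Igll1 and Vpreb2, also surrogate light chain genes, had 0 counts.

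Genes that act behind the B cell receptor formed a list of 16, 6 of which are also in the B cell marker list below. All 16 were tested: edgeR called 0 of them, DESeq2 called 2 higher, and 5 were higher without adjustment, against 0.661% and 4.53% of all tested genes for DESeq2 and without adjustment. Ptpn6, a phosphatase, Vav1, an exchange factor, and Inpp5d, a lipid phosphatase, all of which T cells use too, were at 259 ± 43.9, 191 ± 7.18 and 168 ± 8.33 CPM in WT (SD, n = 3 each). Their log2 fold changes were 0.10, 0.11 and -0.07, and none passed (adjusted p = 0.825, 0.585 and 0.716, edgeR). Syk, the kinase that docks on the Cd79 ITAMs, had 0.702 ± 0.310 CPM in the WT group against 1.37 ± 0.535 CPM (SD, n = 3 each; log2 difference 0.98, adjusted p = 0.523, edgeR).

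Some markers of B cells were higher in CD103KO. In a list of 23 B cell marker genes, 22 were tested, 19 of them with a log2 fold change above 0 (median 1.42). EdgeR called 3 higher (Cd79a, Fcer2a and Ms4a1), limma-voom 3 (Cd79a, Fcer2a and Fcmr) and DESeq2 9. Ms4a1 did not pass with limma-voom (adjusted p = 0.0755), nor Fcmr with edgeR (adjusted p = 0.0529). Of the 22, 13 had CD103KO libraries all above WT. Over all tested genes the shares were 0.141% higher by edgeR, 0.661% higher by DESeq2 and 6.82% with CD103KO libraries all above WT. With the Xist term, where only WT replicate 3 stands for WT, the median log2 fold change of the 22 was 1.36. That median is an effect size only and does not show that the 3 edgeR calls hold with this term. Fcer2a, the low-affinity IgE receptor gene, rose by 2.58 (SE 0.27, adjusted p = 0.00589) and Ms4a1, the CD20 gene, by 2.28 (SE 0.31, adjusted p = 0.0268) on the log2 scale with edgeR. This list was drawn up with earlier results of these data known, and its direction is no independent evidence.

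The log2 fold changes of that list are given here by level. Of its 13 genes with a mean under 1 CPM over all 6 libraries, 13 had a log2 fold change above 0 (median 1.86), and edgeR called 1, Fcer2a. The count filter could pass a scarce gene on 1 group alone. Ebf1, with 6 to 9 counts a library in WT and 19 to 30 in CD103KO, was tested only through CD103KO. The direction of these 13 genes can thus be partly set by the filter and is no test. With no filter, the median of the whole list was 1.31 (23 tested). Of 6 genes from 1 to 10 CPM, 5 were above 0 (median 0.70), and edgeR called 2, Cd79a and Ms4a1. The 3 at 10 CPM or more, Cd72, Tnfrsf13b (the receptor TACI) and Ralgps2, had -0.14, -0.11 and 0.05, and none passed (adjusted p = 0.675, 0.757 and 0.865, edgeR). The limits of 1 and 10 CPM were chosen after the levels were seen. In this respect Ighm, Cd79b and Pou2af1, at 452, 25.4 and 17.0 CPM over all libraries, lay with these 3, and Ighd, at 8.61 CPM with a log2 fold change of 0.58, lay between.

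**Figure D4:**
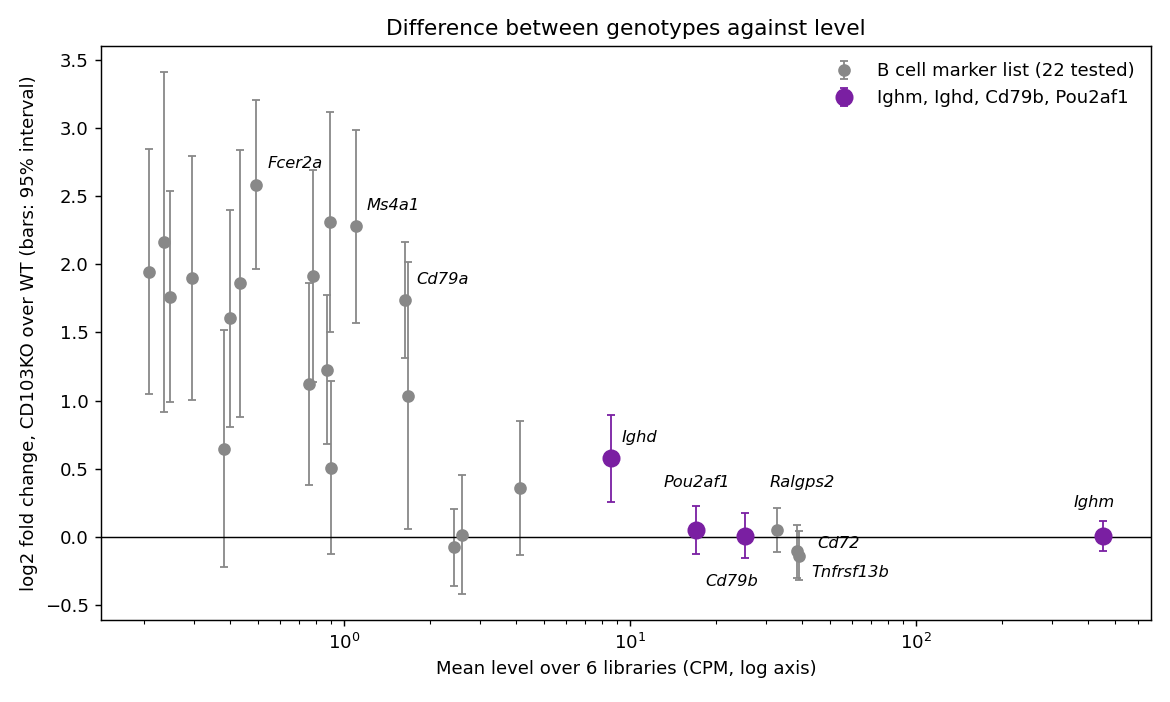
Log2 fold change of CD103KO over WT with its 95% interval (edgeR) against the mean level over 6 libraries (CPM, log axis), for 22 tested B cell marker genes in grey and the 4 members in purple. The grey points reach 2.58 at the scarce end and lie between -0.14 and 0.05 at 10 CPM or more, where the intervals include 0, as they do for Ighm, Cd79b and Pou2af1.

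In absolute terms the differences were small beside Ighm. CD103KO minus WT was 3.41 CPM for Ighd, 1.77 CPM for Cd79a and 1.45 CPM for Ms4a1. It was 1.19 CPM for Fcmr, the IgM Fc receptor gene, and 1.14 CPM for Igkc. These are rises only, and not all of them. The B cell markers Cd72 and Tnfrsf13b went the other way, at -3.69 and -2.79 CPM, the fall of Cd72 exceeding the rise of Ighd. Of the 22 tested B cell markers, 3 had a log2 fold change under 0, and edgeR called none of these lower. The amount of each transcript in a B cell was not measured here, so these differences cannot be set against the intervals of Ighm and Cd79b. The 3 B cell markers that edgeR called were higher in CD103KO, as the values of Ighd were, and the part of B cell markers in the difference of Ighd was not tested. In sorted bulk samples, more cells of a type and more RNA per cell cannot be told apart.

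Other cells that can carry these transcripts were looked for by their markers. Siglech and Klk1, which mark plasmacytoid dendritic cells, had 0 counts in every library, and Tnfrsf17, a plasma cell marker, likewise. Of 7 tested plasma cell markers edgeR called 0 (without adjustment 1 was higher and 1 lower) and DESeq2 0. Their summed levels were 45.8 to 49.0 CPM in WT and 43.3 to 49.4 CPM in CD103KO. Most of this was Xbp1 and Irf4, at 32.6 and 12.9 CPM in WT. Mzb1 and Derl3 had CD103KO libraries all above WT, and Xbp1 all below, against 6.82% and 7.36% of tested genes. Mzb1 and Derl3 were scarce, with 10 to 38 and 7 to 18 counts a library. For Derl3 the groups nearly touched, with WT replicate 2 at 0.1462 CPM and CD103KO replicate 2 at 0.1468 CPM. Jchain had 16 to 70 counts a library, the highest in WT replicate 1. Erythrocyte markers were higher in CD103KO in 5 of 5 log2 fold changes (median 1.02). EdgeR called 0 of them (4 higher without adjustment) and DESeq2 3, and 4 had CD103KO libraries all above WT. Over all tested genes, 4.53% were higher without adjustment, 0.661% were called higher by DESeq2 and 6.82% had CD103KO libraries all above WT. Summed levels of these markers were 33.0 to 50.04 CPM in WT and 57.4 to 93.0 CPM in CD103KO. The part of erythrocyte markers in the difference of Ighd was not tested. The 10 plasmacytoid dendritic cell markers summed to 351 to 421 CPM in WT and 404 to 450.0 CPM in CD103KO, most of it Ccr9, a chemokine receptor gene that T cells also express, at 313 ± 28.9 CPM in WT (SD, n = 3). Of the 7 tested, edgeR called 0 (1 higher without adjustment) and DESeq2 0. Among 8 CD8 T cell markers, 6 CD4 and regulatory T cell markers, 5 myeloid and 5 NK markers tested, edgeR called 0, DESeq2 0 and none passed without adjustment. The 5 CD3 and zeta chain genes, the T cell counterparts of Cd79b, gave 0 calls by edgeR and DESeq2 (1 higher without adjustment) and a median log2 fold change of 0.02.

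The genes whose levels ran most like each member, by Pearson r of log2 CPM over the 6 libraries among 7674 genes at 10 CPM or more, were Zdhhc21 (0.996) and Tbc1d22a (0.988) for Ighd, Dcaf5 (0.991) and Mrpl40 (0.989) for Ighm, Exoc2 and Mtrr (0.994 each) for Cd79b, and Crybg1 (0.979) and Frrs1 (0.971) for Pou2af1. With 6 points, an r over 0.9 was common, held by 104, 54, 80 and 35 genes for Ighd, Ighm, Cd79b and Pou2af1.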

How the data were processed

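The measurements are RNA-seq of 6 libraries from a stranded mRNA kit. The deposited values are RSEM expected counts for each gene, which the authors left without normalization. The submitters' processing notes list bcl2fastq (2.20), cutadapt (1.18), STAR (2.7.0f), RSEM, GRCm38 and mm10. Sources used here do not give the annotation, the strand setting or how multiply aligned reads were treated. Fractional values made up 6.48% of the table and were rounded to whole numbers. All 55450 identifiers matched GENCODE M21 (GRCm38), which gave coordinates and exon lengths.

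CD103KO was compared with WT in edgeR 4.0.16 (R 4.3.3): filterByExpr (minimum count 10), TMM, quasi-likelihood F test on group, Benjamini-Hochberg over 13470 genes at 0.05. CPM use TMM-scaled totals, of which 1 count is 0.0104 to 0.0147. Intervals of fold changes use the test's degrees of freedom. Ratios and sums were tested with exact two-sided permutation (SciPy 1.17.1). The test was checked on simulated data. Alternatives were RLE and upper-quartile factors, 2 other filters, DESeq2 1.42.0, limma-voom (limma 3.58.1), a replicate block, an Xist term, unrounded counts and each library left out. Figures used matplotlib 3.10.9.

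Replicates were not copies of each other (chi-square of counts per degree of freedom 12.8 to 26.5 within groups). Members and lists were chosen with earlier results of these data known. The rule for named genes took the members, Itgae, Xist and Ddx3y, called genes and the 4 most abundant tested genes of each list, genes overlapping a member and the 2 genes most like each member; others named (such as Syk, Vpreb1, Fcmr and genes at 0 counts) were chosen after their values were seen.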

Additional observations from a re-analysis of the deposited data

How the results depend on the processing

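No member changed its side of the threshold under the alternatives run, except Ighd, which DESeq2 and edgeR without a filter called higher (log2 fold changes of 0.58 and 0.57, adjusted p = 0.00967 and 0.0250); over its alternatives the adjusted p of Ighd ran from 0.00967 to 0.925. The near-zero log2 fold change of Ighm turned sign with upper-quartile factors (-0.00038) and the Xist term (-0.068). Leaving out each library in turn gave -0.035 to 0.045 for Ighm, 0.44 to 0.76 for Ighd, -0.056 to 0.050 for Cd79b and -0.015 to 0.089 for Pou2af1, -0.028 to 0.16 for the log2 ratio of Pou2af1 to Pou2f2, and -0.867 to 0.894 CPM for the difference in switched constant genes. Genes called numbered 30, 112 with no filter, 137 with DESeq2, 15 with the Xist term, and 19 (without CD103KO replicate 2) to 59 (without CD103KO replicate 1) with a library left out, 52 without WT replicate 3. B cell marker genes called numbered 8 with no filter and 9 with DESeq2. Their median was 1.36 with the Xist term, which does not show that any call holds there. It was 0.36 at 1 CPM in 3 libraries, where scarce genes are not tested. Partner chains called numbered 2 with no filter, 3 with DESeq2 and 0 with the Xist term, with medians of 1.03 with no filter, 0.90 with the Xist term and 0.55 to 1.04 with a library left out. Signalling genes called numbered 2 with no filter and 2 with DESeq2, with a median of 0.11 at 1 CPM in 3 libraries. Other causes of these shifts were not tested. With the length of the longest transcript in place of merged exons, Ighm stood at 265 CPM per kilobase in WT. With the replicate number as a block, edgeR called 24 genes and 0 of the 4 members, and Ighd stood at 0.60 (log2, adjusted p = 0.288). In deviations from group means, same-numbered libraries correlated at -0.20, -0.01 and -0.03, and differently numbered ones at -0.15 to 0.18. With 3 libraries a group, these values cannot decide whether the numbers pair the samples. The sums of diversity and joining segments, all 0, have no alternative values. Depth left the Ighv segments with 18 to 81 counts a library.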

Other observations

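The Ighv counts of single libraries rested on few segments, given here as values chosen after they were seen. In WT replicate 1, Ighv1-7, Ighv5-9 and Ighv1-26 had 20, 11 and 10 of 81 counts, beside 219 counts of Ighg1, 69 of Ighg2b and 29 of the light chain segment Igkv3-5. Igkv3-5 had 0 or 1 count in each of the other libraries, and Ighv5-9 had 0. The number of Ighv segments with a count was 16, 19 and 11 for the WT libraries, against 30, 28 and 34 for the CD103KO libraries.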
